A study of Mus musculus with 20 samples.

Results

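Lysosomal enzymes and membrane proteins were followed at the RNA level in the cerebellum of knock-in mice for spinocerebellar ataxia type 3. The genes were taken by name and matched to the Ensembl IDs of the count table. All 35 genes were found among the 29200 genes of the table, and all 35 passed the filter of a mean of at least 50 counts that left 12153 genes to be tested. The proteins fall into 11 proteases, 11 enzymes that act on glycans, 6 proteins of lipid and thioester breakdown, 6 membrane proteins and progranulin. Among the proteases, 4 cathepsins that microglia are known to be rich in (Ctss, Ctsc, Ctsh, Ctsz) were set against 5 that most cells express (Ctsa, Ctsb, Ctsd, Ctsf, Ctsl).

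The lysosome is the acidic compartment in which cells break down proteins, glycans and lipids brought in by endocytosis, phagocytosis and autophagy. Its soluble hydrolases are made in the endoplasmic reticulum and sorted in the Golgi, mostly by mannose 6-phosphate, while membrane proteins hold the compartment together and carry out the products. Neurons depend on it lifelong, inherited loss of many of these enzymes causes storage disease in the brain, and microglia, the phagocytes of the brain, are rich in some of the cathepsins.

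RNA was sequenced from the cerebella of 20 male C57BL6/N mice, 5 in each of 4 groups. The WT/WT mice carried the normal alleles of Atxn3, and the 304Q/304Q mice carried an expansion of 304 repeats in both alleles. Each genotype was sampled at 2 months and at 12 months of age. The 304Q line descends from 1 founder, its repeat is interrupted by CAA codons, and it is expressed from the mouse's own locus, so that every cell type that uses the gene carries it.

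At 2 months, the reads counted on genes numbered between 12695367 and 15136892 in the WT/WT mice and between 13246385 and 27636687 in the 304Q/304Q mice. At 12 months, they numbered between 12765814 and 14305694 in the WT/WT mice and between 11385380 and 13897750 in the 304Q/304Q mice. To give normalized read counts, each library was brought to the average size of 14205820 reads. Atxn3 itself had between 240 and 332 normalized read counts in the WT/WT mice and between 158 and 241 in the 304Q/304Q mice at 2 months, and between 202 and 234 and between 181 and 220 at 12 months. A count per gene does not measure the repeat.

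Some libraries stood apart. Replicate 1 of the WT/WT mice at 12 months had the lowest median correlation with its own group, 0.9806, against 0.9835 to 0.9892 in the other 19 libraries. The level of GC-rich against GC-poor transcripts, as a log2 difference from the mean of all libraries, was -0.107 in this library and 0.177 to 0.311 in the other WT/WT mice of 12 months. The same difference was -0.291, -0.178 and -0.184 in replicates 1 to 3 of the WT/WT mice at 2 months, against 0.103 and 0.074 in replicates 4 and 5. In the 304Q/304Q mice it was -0.205 in replicate 5 and between -0.043 and 0.063 in the others at 2 months. At 12 months it was between -0.094 and 0.034 in the 304Q/304Q mice, so that it also differed between the genotypes at this age. RNA of the choroid plexus also varied, and 6 libraries had more than 100 CPM (library-scaled counts) in the sum of 8 choroid plexus genes. They were replicate 3 of the 304Q/304Q mice at 2 months (1752 CPM), replicates 1, 2 and 5 of the WT/WT mice at 12 months (425, 2152 and 1026 CPM) and replicates 1 and 3 of the 304Q/304Q mice at 12 months (1536 and 1431 CPM). The most abundant of these genes was Ttr, and the sum was between 26.1 and 44.9 CPM in the other 14 libraries.

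Per length of transcript, the lysosomal genes spread widely in level, from Ctsc, above 4.7% of the genes tested, to Psap, above 99.8%. Their median was 17.2 reads per kilobase of exon, scaled for library size (RPKM), against 7.21 RPKM over the genes tested. Psap, the precursor of the saposins that help to degrade sphingolipids, led with 624 RPKM. It was followed by the membrane glycoprotein gene Lamp1 (165 RPKM), the proteases Ctsb (135 RPKM) and Ctsd (89.1 RPKM), and Ids (61.0 RPKM), whose product removes sulfate from heparan and dermatan sulfate. The lowest levels were those of Ctsc (1.04 RPKM), Ctsh (2.17 RPKM) and the acid lipase gene Lipa (2.30 RPKM), and Ctsc had the lowest count in a library, 54. The summed CPM of the 35 genes was also taken as a percentage of the library size after scaling with TMM factors, which is not a plain share of the counts. At 2 months this came to 0.527% ± 0.0126 (SD, n = 5) in WT/WT mice and 0.535% ± 0.00797 in 304Q/304Q mice. At 12 months the scaled values were 0.568% ± 0.0192 and 0.563% ± 0.0134.

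At 2 months, the comparison of genotypes gave no call among the lysosomal genes. A gene was called where edgeR's quasi-likelihood test, adjusted after Benjamini-Hochberg over all genes tested, gave an adjusted p no higher than 0.05, and 0 of the 35 genes reached this, against 0.0494% of all genes. At an unadjusted p under 0.05 there were 3 of the 35, beside 674 of the 12153 genes tested. DESeq2 also called 0 of the 35. The median log2 fold change of the 35 genes was 0.01, and that of all genes -0.002. In 1 gene, Grn, the groups did not overlap, as in 1.05% of all genes. Standard errors limit what this shows, since they ran from 0.0408 on the log2 scale for Psap to 0.191 for Ctsc.

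Age was the stronger contrast for these genes. From 2 to 12 months, 7 of the 35 were called higher and 0 lower in WT/WT mice, where 11.5% of all genes were called and 6.08% were called higher. In 304Q/304Q mice, 6 were called higher and 0 lower, where 7.26% of all genes were called and 3.08% were called higher. The median log2 fold change with age was 0.10 in WT/WT mice and 0.06 in 304Q/304Q mice, against 0.002 and -0.004 over all genes. With surrogate variables the median in WT/WT mice was 0.04 in both edgeR and DESeq2, and without replicate 1 of the old WT/WT mice it was 0.14. Groups did not overlap in 4 of the 35 genes in WT/WT mice and in 5 in 304Q/304Q mice, all of them higher at 12 months, while 6.57% and 7.8% of all genes had no overlap in either direction. Ctss, Ctsz, Ctsd, Gaa and Man2b1 were called in both genotypes, Ctsb and Grn in WT/WT mice, and Ids in 304Q/304Q mice. With replicate 1 of the WT/WT mice at 12 months left out, 12 genes were called in WT/WT mice, 11 higher and 1, Ids, lower. The calls added among the higher genes, named after their values were seen, were Cln3, Glb1, Npc2 and Psap, and leaving out any other library gave between 5 and 8 calls. Among these, Psap was called without replicate 4 and Glb1 without replicate 5 of the young WT/WT mice.

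**Figure D1:**
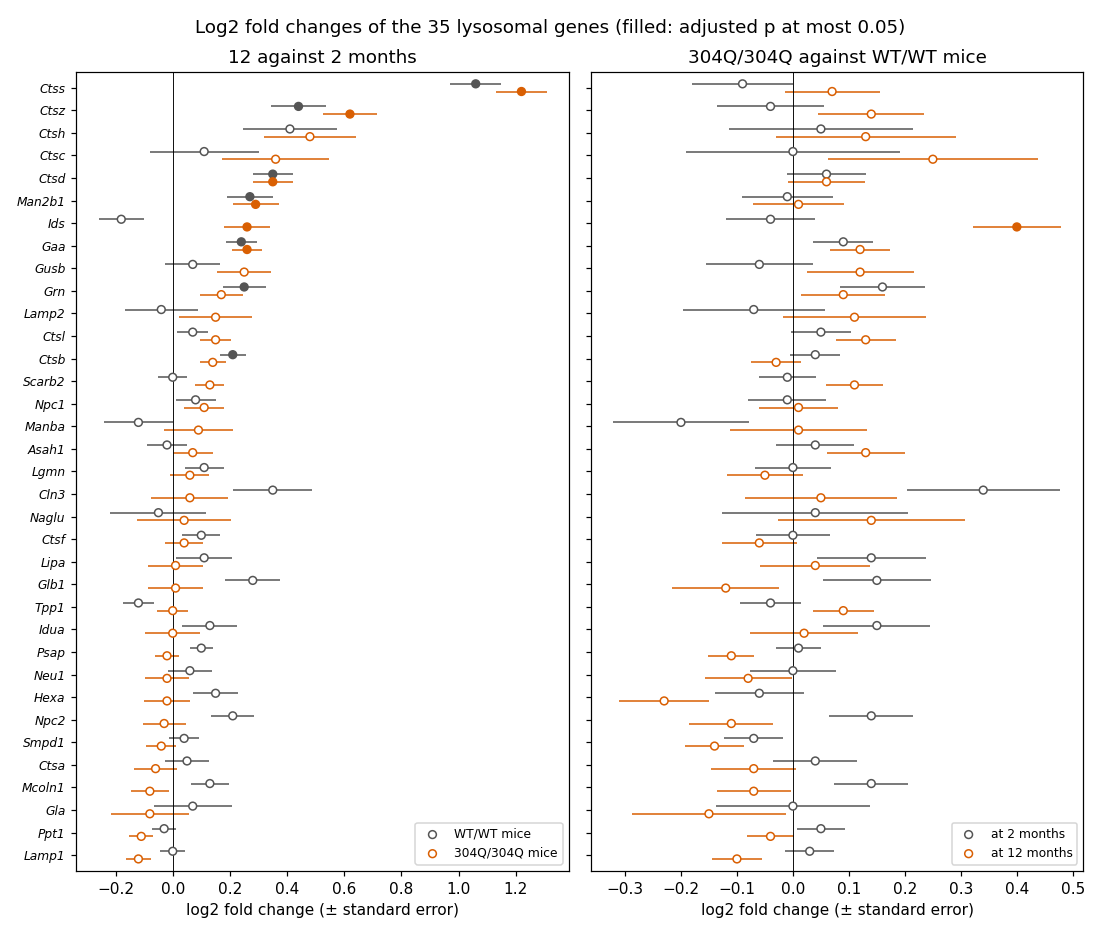
Log2 fold changes of the 35 lysosomal genes with standard errors (n = 5 mice a group), on the left for 12 against 2 months in each genotype and on the right for 304Q/304Q against WT/WT mice at each age. Filled points have an adjusted p of at most 0.05, and Ctss lies farthest to the right with age, at 1.06 and 1.22.

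The gene with the largest change with age was Ctss, which encodes cathepsin S, a cysteine protease of microglia and other phagocytes that stays active at neutral pH and trims the invariant chain of MHC class II. It lies on chromosome 3 (GRCm38, 95526786 to 95556403) and shares no exonic sequence with another annotated gene. In replicates 1 to 5 of the WT/WT mice its normalized read counts were 303, 314, 304, 315 and 393 at 2 months and 681, 620, 738, 734 and 628 at 12 months. In the 304Q/304Q mice they were 264, 293, 305, 325 and 352 at 2 months and 689, 767, 777, 689 and 662 at 12 months. Every mouse of 12 months lay far above every mouse of 2 months, and the genotypes overlapped at both ages. The log2 fold change with age was 1.06 ± 0.0882 (SE) in WT/WT mice and 1.22 ± 0.0879 in 304Q/304Q mice (edgeR, Benjamini-Hochberg adjusted p = 6.55e-08 and 2e-09). It was the 1 lysosomal gene in WT/WT mice, and with Ctsz 1 of 2 in 304Q/304Q mice, that also passed a log2 fold change of 0.5, as 1.4% and 1.37% of all genes did with a higher level. The difference between the 2 age effects was 0.16 ± 0.124 and was not called (edgeR, Benjamini-Hochberg adjusted p = 0.531).

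Ctsz encodes cathepsin Z, a carboxypeptidase. Its normalized read counts in WT/WT mice were 410, 555, 560, 558 and 665 at 2 months and 649, 742, 833, 778 and 729 at 12 months. In 304Q/304Q mice they were 537, 546, 580, 546 and 475 at 2 months and 797, 895, 886, 821 and 721 at 12 months. The ages did not overlap in 304Q/304Q mice, and in WT/WT mice replicate 5 of the young group lay just above replicate 1 of the old group. With age the log2 fold change was 0.44 ± 0.0957 in WT/WT mice and 0.62 ± 0.0952 in 304Q/304Q mice (edgeR, Benjamini-Hochberg adjusted p = 0.00507 and 0.000118). Exons of Ctsz overlap those of Nelfcd, and since the use of strand in the counting was not stated, reads of the 2 genes may not be fully told apart. The same holds for Ctsa, Ctsb, Ctsd, Ctsl, Grn, Lamp1, Npc1, Cln3, Glb1, Hexa, Idua and Ppt1, whose exons also overlap those of other annotated genes.

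The other microglia-enriched cathepsins were low. Ctsh, an aminopeptidase, had a mean of 115 ± 32.3 (SD, n = 5) and 153 ± 22.7 normalized read counts in WT/WT mice and of 120 ± 14.2 and 167 ± 25.1 in 304Q/304Q mice at 2 and 12 months. Its log2 fold changes with age, 0.41 ± 0.164 and 0.48 ± 0.162, were not called (edgeR, Benjamini-Hochberg adjusted p = 0.107 and 0.0772), while DESeq2 called the one in 304Q/304Q mice (Benjamini-Hochberg adjusted p = 0.0408). In edgeR it was called in WT/WT mice without replicate 4 of the young WT/WT mice, and in 304Q/304Q mice without that library or replicate 4 of the old 304Q/304Q mice, with surrogate variables and with only the 2 groups compared. Ctsc, which activates serine proteases of immune cells, had between 54.8 and 116 normalized read counts over the 20 mice and overlapping groups. Its log2 fold changes with age were 0.11 ± 0.191 and 0.36 ± 0.188, so that a change of the size seen in Ctsz could have been missed.

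Ctsd encodes cathepsin D, the main aspartic protease of lysosomes. In WT/WT mice it had 2584, 2506, 2807, 2585 and 2331 normalized read counts at 2 months and 3022, 3288, 3550, 3100 and 3375 at 12 months. The 304Q/304Q mice had 2452, 2782, 2815, 2853 and 2473 at 2 months and 3343, 3533, 3982, 3097 and 3045 at 12 months. The ages did not overlap in either genotype. The log2 fold change was 0.35 ± 0.0698 in WT/WT mice and 0.35 ± 0.0696 in 304Q/304Q mice (edgeR, Benjamini-Hochberg adjusted p = 0.00266 and 0.00197). Without the 6 libraries with choroid plexus RNA, a comparison added after the data were seen, the change in 304Q/304Q mice was 0.29 and was not called (edgeR, Benjamini-Hochberg adjusted p = 0.0548). Over 30 alternatives in edgeR or DESeq2 this adjusted p (Benjamini-Hochberg) ran from 6.93e-07 to 0.0548.

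Ctsb, for the cysteine protease cathepsin B, was the most abundant cathepsin per length. Its normalized read counts in WT/WT mice were 10672, 10514, 10842, 11292 and 10564 at 2 months and 11309, 12176, 13373, 12630 and 12843 at 12 months. Among 304Q/304Q mice the counts were 11262, 11473, 11209, 10949 and 10398 at 2 months and 12360, 12287, 12982, 11649 and 11762 at 12 months. Old mice were above young mice without overlap in both genotypes, by a narrow margin in replicate 1 of the old WT/WT mice. The log2 fold change of 0.21 ± 0.0447 in WT/WT mice was called and that of 0.14 ± 0.0447 in 304Q/304Q mice was not (edgeR, Benjamini-Hochberg adjusted p = 0.00436 and 0.0532). The difference between the age effects was -0.07 ± 0.0632 and was not called (edgeR, Benjamini-Hochberg adjusted p = 0.624). In 304Q/304Q mice Ctsb was called by DESeq2, by edgeR with surrogate variables or with the GC trend removed (Benjamini-Hochberg adjusted p = 0.00951 and 0.00921), and by edgeR without replicate 1 or 3 of the old WT/WT mice or replicate 4 or 5 of the old 304Q/304Q mice.

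Ctsa, Ctsf and Ctsl are the other widely expressed cathepsins. The carboxypeptidase gene Ctsa had a mean of 1460 ± 176 (SD, n = 5) and 1514 ± 149 normalized read counts in WT/WT mice and of 1505 ± 97.0 and 1440 ± 60.9 in 304Q/304Q mice at 2 and 12 months. For Ctsf, a cysteine protease gene, the means were 1238 ± 98.3 and 1331 ± 132 in WT/WT mice and 1240 ± 38.4 and 1275 ± 73.3 in 304Q/304Q mice. Those of Ctsl, for cathepsin L, were 1449 ± 101 and 1521 ± 68.5 in WT/WT mice and 1498 ± 57.6 and 1661 ± 81.6 in 304Q/304Q mice. The ages overlapped for each of these genes in both genotypes. Their log2 fold changes with age were between -0.06 and 0.15 and were not called by edgeR or DESeq2, though DESeq2 with surrogate variables called Ctsl in 304Q/304Q mice.

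Set side by side, 2 of the 4 microglia-enriched cathepsins were called higher with age in each genotype, beside 6.08% of all genes in WT/WT mice and 3.08% in 304Q/304Q mice, with a median log2 fold change of 0.42 in WT/WT mice and 0.55 in 304Q/304Q mice. Of the 5 widely expressed cathepsins, 2 were called higher in WT/WT mice and 1 in 304Q/304Q mice, with medians of 0.10 and 0.14. The summed level of the microglia-enriched cathepsins was 63.1, 74.1, 72.2, 79.3 and 87.8 CPM in WT/WT mice at 2 months and 109, 112, 126, 124 and 115 CPM at 12 months. For the 304Q/304Q mice the sums were 67.8, 74.7, 78.7, 73.0 and 73.4 CPM at 2 months and 124, 138, 138, 122 and 114 CPM at 12 months. The ages were thus apart in both genotypes, and Ctss and Ctsz carried most of the sum. The widely expressed cathepsins, mostly Ctsb, summed to 1231 ± 42.7 CPM (SD, n = 5) and 1415 ± 87.0 CPM in WT/WT mice and to 1265 ± 41.2 CPM and 1407 ± 70.5 CPM in 304Q/304Q mice at 2 and 12 months. Between genotypes, edgeR called 0 of 4 microglia-enriched and 0 of 5 widely expressed cathepsins at 2 months and at 12 months, as did DESeq2. Of all genes, edgeR called 0.0494% at 2 months and 12.5% at 12 months. At 12 months, 1 of these 9 genes had an unadjusted p under 0.05, beside 3321 of the 12153 genes tested.

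Markers of microglia moved with age as well. Of 20 markers, 16 were tested, and 10 of them were called higher in WT/WT mice (median log2 fold change 0.61) and 12 in 304Q/304Q mice (0.66), beside 6.08% and 3.08% of all genes. By genotype, 0 were called at 2 months (also 0 by DESeq2 and 0 at an unadjusted p under 0.05), beside 0.0494% of all genes. At 12 months 1 was called, C1qa, with overlapping groups, beside 12.5% of all genes. Aif1, Fcrls, Gpr34 and Itgam lay under a mean of 50 counts, the most abundant marker was Csf1r, and none of the 20 had a median of 0. The markers summed to 175, 170, 180, 200 and 199 CPM in WT/WT mice at 2 months and to 251, 249, 300, 290 and 279 CPM at 12 months. Among 304Q/304Q mice they summed to 172, 178, 172, 185 and 180 CPM at 2 months and to 296, 320, 331, 294 and 258 CPM at 12 months. As in the sums of the cathepsins, old and young mice were apart. The ratio of Ctss to this sum was between 0.108 and 0.139 in the 10 mice of 2 months and between 0.158 and 0.191 in the 10 mice of 12 months, so that Ctss was higher relative to the sum. Single markers, picked as the largest after their values were seen, had log2 fold changes with age near those of Ctss. In WT/WT mice C1qc was at 0.99 ± 0.127 and Trem2 at 0.98 ± 0.208. In 304Q/304Q mice C1qa was at 1.29 ± 0.111 and Trem2 at 1.31 ± 0.199. The homeostatic markers P2ry12 and P2ry13, picked out after their values were seen, were not called with age, nor was Siglech. In WT/WT mice the mean normalized read counts at 2 and 12 months were 136 and 128 for P2ry12 and 62.5 and 54.1 for P2ry13. Of the 16 tested markers, 14 had a positive and 2 a negative log2 fold change with age in WT/WT mice. All 16 were positive in 304Q/304Q mice. Other markers of the list were: Csf1r and Selplg were called higher in both genotypes. Tmem119 was called higher in WT/WT mice (0.73), and Cx3cr1 (0.62) and Olfml3 (0.65) in 304Q/304Q mice. The part of the microglial genes in the change of the cathepsins was not tested, and in bulk tissue more cells of a type and more RNA per cell cannot be told apart, nor fewer cells and less RNA per cell.

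Genes of perivascular macrophages and monocytes were too low for the filter. All 7 (Mrc1, Cd163, Lyve1, Pf4, Ms4a7, F13a1 and Ccr2) lay under a mean of 50 counts and were not tested, with Mrc1 the most abundant at 2.92 CPM. Their sums in WT/WT mice were 10.4, 8.03, 7.91, 7.93 and 8.08 CPM at 2 months and 9.01, 8.09, 7.07, 9.81 and 8.20 CPM at 12 months. The sums in 304Q/304Q mice were 7.01, 7.40, 6.01, 7.07 and 8.37 CPM at 2 months and 5.79, 5.61, 7.30, 8.21 and 6.07 CPM at 12 months. These values overlapped between the ages in both genotypes.

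Among the enzymes that act on glycans, 2 of 11 were called higher with age in WT/WT mice and 3 of 11 in 304Q/304Q mice, beside 6.08% and 3.08% of all genes. Gaa encodes the acid alpha-glucosidase that degrades glycogen in lysosomes, and its normalized read counts in WT/WT mice were 2993, 3215, 3109, 3354 and 3530 at 2 months and 3393, 3848, 3997, 3920 and 3929 at 12 months. For 304Q/304Q mice the values were 3564, 3498, 3467, 3617 and 3141 at 2 months and 4134, 4252, 4028, 4090 and 4248 at 12 months. The ages did not overlap in 304Q/304Q mice, and in WT/WT mice they overlapped through replicate 1 of the old mice. The log2 fold change was 0.24 ± 0.0534 in WT/WT mice and 0.26 ± 0.0533 in 304Q/304Q mice (edgeR, Benjamini-Hochberg adjusted p = 0.00665 and 0.00207). Gaa has a GC content of 58.9%, and with each library's dependence on GC removed, an alternative chosen after seeing the data, its change in WT/WT mice was 0.11 and was no longer called (edgeR, Benjamini-Hochberg adjusted p = 0.0922). Over 30 alternatives in edgeR or DESeq2 this adjusted p (Benjamini-Hochberg) ran from 0.000776 to 0.0922.

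Man2b1 encodes the lysosomal alpha-mannosidase. It had 491, 496, 527, 529 and 525 normalized read counts in WT/WT mice at 2 months and 524, 623, 619, 665 and 673 at 12 months. The 304Q/304Q mice had 510, 471, 502, 568 and 495 at 2 months and 632, 680, 499, 639 and 664 at 12 months. A single old mouse of each genotype, replicate 1 of WT/WT and replicate 3 of 304Q/304Q, lay among the young ones. Its log2 fold change was 0.27 ± 0.0810 in WT/WT mice and 0.29 ± 0.0806 in 304Q/304Q mice (edgeR, Benjamini-Hochberg adjusted p = 0.0312 and 0.0255). The call in WT/WT mice was lost in 9 of 30 alternatives, among them those without replicate 1, 2 or 3 of the young or replicate 2, 3, 4 or 5 of the old WT/WT mice. That in 304Q/304Q mice was lost in 9 of 30 as well, among them those without replicate 1, 2, 3 or 5 of the young or replicate 1, 2, 4 or 5 of the old 304Q/304Q mice. Across the alternatives the adjusted p of edgeR or DESeq2 (Benjamini-Hochberg) was between 0.00563 and 0.0877 in WT/WT mice and between 0.00283 and 0.0801 in 304Q/304Q mice.

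Grn encodes progranulin, a secreted glycoprotein that is taken into lysosomes and cut into granulins there. Its normalized read counts in WT/WT mice were 745, 771, 801, 682 and 776 at 2 months and 803, 926, 944, 835 and 969 at 12 months. Counts in 304Q/304Q mice were 804, 918, 846, 835 and 828 at 2 months and 782, 1011, 1030, 900 and 1029 at 12 months. The ages were apart in WT/WT mice, by 2 counts at the closest, and overlapped in 304Q/304Q mice. Its log2 fold change was 0.25 ± 0.0753 in WT/WT mice and 0.17 ± 0.0746 in 304Q/304Q mice (edgeR, Benjamini-Hochberg adjusted p = 0.0355 and 0.209). The call in WT/WT mice was lost in 12 of 30 alternatives, with adjusted p between 0.0118 and 0.147 (edgeR or DESeq2, Benjamini-Hochberg). It was lost with surrogate variables in both edgeR and DESeq2, with the GC trend removed and without the libraries with choroid plexus RNA. It was also lost without replicate 1, 2 or 4 of the young or replicate 2, 3 or 5 of the old WT/WT mice. In 304Q/304Q mice edgeR called Grn without replicate 1 of the old 304Q/304Q mice (0.23, Benjamini-Hochberg adjusted p = 0.0484).

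The 6 membrane genes (Lamp1, Lamp2, Scarb2, Npc1, Cln3 and Mcoln1) and the 6 genes of lipid and thioester breakdown (Asah1, Smpd1, Lipa, Npc2, Ppt1 and Psap) gave 0 calls in edgeR in either contrast of age, and 0 in DESeq2 without surrogate variables. At an unadjusted p under 0.05 there were 1 and 2 membrane genes and 2 and 1 lipid genes in WT/WT and 304Q/304Q mice. Of the 12153 genes tested, 3344 and 2326 were under this p. Lamp1, which lines the lysosomal membrane, had a log2 fold change of 0.00 ± 0.0441 in WT/WT mice and of -0.12 ± 0.0441 in 304Q/304Q mice (edgeR, Benjamini-Hochberg adjusted p = 0.987 and 0.11). With surrogate variables the value in 304Q/304Q mice was -0.13 and was called by edgeR (Benjamini-Hochberg adjusted p = 0.0267), as it was without replicate 3 of the old 304Q/304Q mice (-0.15, edgeR, Benjamini-Hochberg adjusted p = 0.0428). Cln3, whose protein is lost in a juvenile storage disease of neurons, was the 1 membrane gene with an unadjusted p under 0.05 in WT/WT mice, at 0.35 ± 0.138, and stood at 0.06 ± 0.135 in 304Q/304Q mice. Lamp2 was at -0.04 ± 0.127 and 0.15 ± 0.127. Scarb2, the receptor that carries beta-glucocerebrosidase to lysosomes, stood at 0.00 ± 0.0510 and 0.13 ± 0.0509. The cholesterol transporter gene Npc1 was at 0.08 ± 0.0699 and 0.11 ± 0.0696, and the cation channel gene Mcoln1 at 0.13 ± 0.0665 and -0.08 ± 0.0662.

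At 12 months, 1 of the 35 lysosomal genes was called between the genotypes, against 12.5% of all genes. The median log2 fold change of the 35 was 0.02 and that of all genes -0.004. At an unadjusted p under 0.05 there were 8 of the 35, beside 3321 of the 12153 genes tested. Groups did not overlap in 2 genes, both higher in 304Q/304Q mice (Ids and Gaa), while 8.94% of all genes had no overlap in either direction. The gene called was Ids, on the X chromosome (70343069 to 70365084), whose exons overlap no other annotated gene.

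The normalized read counts of Ids at 12 months were 4722, 3745, 3546, 3715 and 3670 in WT/WT mice and 4760, 5122, 5189, 5545 and 5004 in 304Q/304Q mice. At 2 months they were 4800, 4598, 4803, 3882 and 3893 in WT/WT mice and 4000, 4193, 4048, 4209 and 4949 in 304Q/304Q mice. The old 304Q/304Q mice lay above the old WT/WT mice, of which replicate 1 came close to the lowest of them, and at 2 months the genotypes were mixed. Of all the young mice, replicates 1 to 3 of WT/WT and replicate 5 of 304Q/304Q were high, the libraries in which GC-poor transcripts were also high, as they were in replicate 1 of the old WT/WT mice, and Ids has a GC content of 44.4%. The log2 fold change by genotype was 0.40 ± 0.0791 at 12 months (edgeR, Benjamini-Hochberg adjusted p = 0.00124). It was called in each of 30 alternatives, with values between 0.32 and 0.52 and adjusted p between 2.16e-10 and 0.00797 (edgeR or DESeq2, Benjamini-Hochberg). With the GC trend removed it was 0.32 (edgeR, Benjamini-Hochberg adjusted p = 0.00016), and without replicate 1 of the old WT/WT mice 0.48 (edgeR, Benjamini-Hochberg adjusted p = 4.7e-05).

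**Figure D2:**
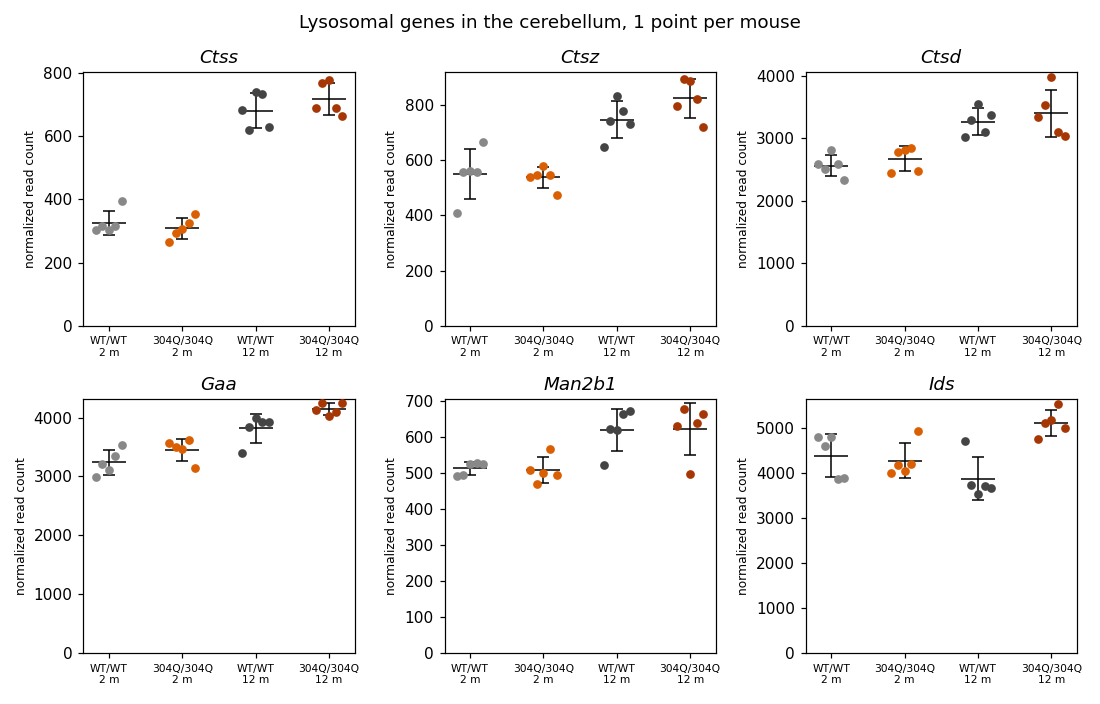
Normalized read counts of 6 lysosomal genes in each mouse (points), with the mean and SD of each group of 5 (lines). Ctss roughly doubled with age in both genotypes (mean 326 to 680 in WT/WT and 308 to 717 in 304Q/304Q mice), while at 12 months Ids had a mean of 5124 in 304Q/304Q and of 3880 in WT/WT mice.

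Ids was also the 1 lysosomal gene whose genotype effect differed between the ages, by 0.44 ± 0.112 (edgeR, Benjamini-Hochberg adjusted p = 0.0388), where 1.95% of all genes were called. With age it was called higher in 304Q/304Q mice, by 0.26 ± 0.0789, and not called in WT/WT mice, at -0.18 ± 0.0790 (edgeR, Benjamini-Hochberg adjusted p = 0.0443 and 0.139). These contrasts and the one between genotypes use the same libraries and are not separate evidence. The call of the difference was lost in 16 of 29 alternatives, with values between 0.29 and 0.54 and adjusted p between 8.43e-05 and 0.0881 (edgeR or DESeq2, Benjamini-Hochberg). It was lost without replicate 1, 2 or 3 of the young or replicate 2, 3, 4 or 5 of the old WT/WT mice, and without replicate 1, 2, 3 or 4 of the young or replicate 2, 3 or 4 of the old 304Q/304Q mice. The call with age in 304Q/304Q mice was lost in 14 of 30 alternatives, including those without any one of replicates 1 to 4 of the young or 2 to 5 of the old 304Q/304Q mice and without WT/WT replicate 2 of 2 months or 2, 4 or 5 of 12 months, with adjusted p between 3.97e-11 and 0.124 (edgeR or DESeq2, Benjamini-Hochberg).

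Other members, named here after their values were seen, came into the comparison of genotypes at 12 months under some settings. Psap was lower in 304Q/304Q mice, by -0.14 on the log2 scale, without replicate 1 of the old WT/WT mice (edgeR, Benjamini-Hochberg adjusted p = 0.0178). Hexa, which acts in the breakdown of GM2 ganglioside, was lower by -0.30 without replicate 2 of the old WT/WT mice and by -0.26 without replicate 5 of the old 304Q/304Q mice (edgeR, Benjamini-Hochberg adjusted p = 0.0107 and 0.0444). Smpd1, the acid sphingomyelinase gene, was lower by -0.18 without replicate 4 of the old WT/WT mice (edgeR, Benjamini-Hochberg adjusted p = 0.0339). With surrogate variables DESeq2 called 4 of the 35 genes, Ids and Gaa higher and Hexa and Psap lower. Gaa was also called with the GC trend removed, at 0.20 (edgeR, Benjamini-Hochberg adjusted p = 0.00191), and Hexa with the replicate number as a block, at -0.23 (edgeR, Benjamini-Hochberg adjusted p = 0.0494).

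Beyond the 35, 78 other genes of the lysosome were listed, and 75 of them were tested. With age, WT/WT mice had 7 called higher and 1 lower, beside 11.5% of all genes called, while 304Q/304Q mice had 3 called higher and 2 lower, beside 7.26% of all genes, and the median log2 fold changes were 0.06 and 0.03. Laptm5, a lysosomal membrane protein of blood and immune cells, was called higher by 0.65 ± 0.115 in WT/WT mice and 0.77 ± 0.114 in 304Q/304Q mice (edgeR, Benjamini-Hochberg adjusted p = 0.000887 and 7.64e-05). Fuca1, the alpha-fucosidase gene, was called in WT/WT mice (0.37 ± 0.0894). Of the inhibitors of cysteine cathepsins, Cst3 (cystatin C) was called higher in WT/WT mice by 0.49 ± 0.103 with overlapping groups (edgeR, Benjamini-Hochberg adjusted p = 0.00363).

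At 2 months, 0 of the 75 were called by genotype in edgeR and in DESeq2, and 0 had an unadjusted p under 0.05. At 12 months, 5 were called higher and 6 lower in 304Q/304Q mice, beside 12.5% of all genes called in this comparison. Cd68, a membrane glycoprotein of phagocytes, was higher by 0.73 ± 0.168, and Tpcn2, a two-pore channel gene, by 0.66 ± 0.111 (edgeR, Benjamini-Hochberg adjusted p = 0.00468 and 0.000207). Sidt2 was lower by -0.25 ± 0.0534 without overlap of the groups (edgeR, Benjamini-Hochberg adjusted p = 0.0024), and its exons overlap A830035O19Rik. It was also called lower with age in 304Q/304Q mice (-0.2 ± 0.0533). Dnase2a, which digests DNA in lysosomes, was lower by -0.66 ± 0.172 with overlapping groups (edgeR, Benjamini-Hochberg adjusted p = 0.012), and its exons overlap Mast1. The proton pump that acidifies the lysosome had 19 genes tested, of which Atp6v1a was called higher (0.18 ± 0.0501) and Atp6v1f lower (-0.24 ± 0.0641). The difference of the genotype effect between ages was called in 0 of the 75 by edgeR and in 1 by DESeq2, where edgeR called 1.95% of all genes. At an unadjusted p under 0.05 there were 12 of the 75, beside 1934 of the 12153 genes tested.

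The transcription factors of the TFEB family switch on many lysosomal genes by binding a palindrome known as the CLEAR element. Tfeb, Tfe3 and Mitf were tested and Tfec, with a mean of 0 in both groups of 12 months, was not. Called by edgeR were 0 of the 3 in the 5 tests, where between 0.0494% and 12.5% of all genes were called. At an unadjusted p under 0.05 there was 1 by genotype at 12 months, 1 with age in 304Q/304Q mice and 1 for the difference between ages. Of the 12153 genes tested, 3321, 2326 and 1934 were under this p in these comparisons, in the same order. DESeq2 called 1, by genotype at 12 months. Of the 3, named here after their values were seen, Mitf had the largest fold changes in the comparison of genotypes at 12 months and with age in 304Q/304Q mice. Its mean was 205 ± 30.4 and 185 ± 29.5 normalized read counts in WT/WT mice and 185 ± 32 and 250 ± 56.3 in 304Q/304Q mice at 2 and 12 months (SD, n = 5). Its groups overlapped in each comparison, and its log2 fold change by genotype at 12 months was 0.43 ± 0.153 (edgeR, Benjamini-Hochberg adjusted p = 0.0665). For Tfeb the means were 242 ± 22.7 and 275 ± 33.9 in WT/WT mice and 242 ± 12.6 and 267 ± 44.3 in 304Q/304Q mice.

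Promoter sequences from RefSeq (GRCm38.p6) were searched for the core of the CLEAR element, TCACGTGA, and for the E-box CACGTG that lies within it. Each promoter of 300 bases reached across a start that RefSeq lists, some genes had several, and both motifs read the same on both strands. For Ctsa, Cln3 and Lgmn the matches lay in a promoter of a start inside the annotated gene, and the promoter at the outer start held neither motif. The match to TCACGTGA in Ctsd and Mcoln1 and that to CACGTG in Ctsl and Naglu also lay within the annotated gene, so that of the genes with TCACGTGA, Gla alone held it outside. A window was at hand for 31 of the 35 genes. TCACGTGA was found in 5 of the 31 (Cln3, Ctsa, Ctsd, Gla and Mcoln1), or 16.1%, against 1.12% of the 27025 genes with a window and 2.25% of those that were also tested. CACGTG was found in 12 of the 31, or 38.7%, against 8.09% and 12.0%. Among the microglia-enriched cathepsins, 0 of the 3 with a window (Ctss, Ctsz and Ctsc) held either motif. Among the widely expressed ones, 4 of 4 (Ctsa, Ctsd, Ctsf and Ctsl) held CACGTG and 2 of 4 held TCACGTGA. Of the genes called higher with age in both genotypes, Ctsd held TCACGTGA, Gaa held CACGTG, and Ctss, Ctsz and Man2b1 held neither.

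Stretches of these promoters are shown to compare genes with and without the motif, 5′ to 3′ on the strand of the gene, with the motif in capitals. All lie outside the annotated gene. The 4 genes with a motif are Lamp1 (chr8:13159091-13159160, plus strand), which held 4 copies of CACGTG, Gla (chrX:134601184-134601243, minus strand), Gaa (chr11:119267796-119267855, plus strand) and Ctsf (chr19:4855059-4855118, plus strand). The 3 without one are Ctss (chr3:95526726-95526785, plus strand), Ctsz (chr2:174439040-174439099, minus strand) and Ids (chrX:70365086-70365145, minus strand), each by the 60 bases before its start. A match is a description of the letters, and binding of a factor was not measured.
Lamp1: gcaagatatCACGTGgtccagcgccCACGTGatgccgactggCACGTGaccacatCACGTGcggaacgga
Gla: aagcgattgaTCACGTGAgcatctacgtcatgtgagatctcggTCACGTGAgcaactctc
Gaa: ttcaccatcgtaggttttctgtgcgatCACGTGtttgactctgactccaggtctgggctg
Ctsf: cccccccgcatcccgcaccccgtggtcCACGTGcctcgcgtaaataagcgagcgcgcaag
Ctss: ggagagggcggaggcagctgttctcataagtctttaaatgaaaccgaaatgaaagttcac
Ctsz: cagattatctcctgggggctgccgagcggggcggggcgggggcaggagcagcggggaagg
Ids: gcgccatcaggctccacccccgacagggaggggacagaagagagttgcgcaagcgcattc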

How the data were processed

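Polyadenylated RNA of 20 cerebella was made into stranded libraries. STAR (2.4.5b per the submitters' notes) placed the reads on GRCm38, Rsubread assigned them to genes, and the authors deposited raw counts. How strand entered the counting was not stated. From these counts, edgeR 4.0.16 (R 4.3.3) gave TMM factors, CPM (counts scaled by library) and quasi-likelihood tests in 1 model of 4 groups, over the 12153 genes averaging 50 counts or more, with Benjamini-Hochberg adjustment. RPKM used exonic lengths of GENCODE M21. The edgeR fit was also run on simulated counts, and no result given here rests on that run. Named were the 9 cathepsins, each member called, the 5 highest and 3 lowest levels per length and, of other lists, the called genes with the smallest adjusted p, at most 4 a test. Genes outside this rule are marked in the text. The alternatives comprised DESeq2 1.42.0, 3 surrogate variables (sva 3.50.0), DESeq2's size factors, 2 other count filters, fits of 2 groups, the replicate number as a block and omission of single libraries. Removing GC trends and libraries with choroid plexus RNA was added after seeing the data. The members and lists were chosen with earlier results of these data known.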

Additional observations from a re-analysis of the deposited data

Results flagged for a closer look

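In 8 of 56 groups checked, 1 mouse lay far from the other 4, where chance gives about 1 in 20. For Ids these were replicate 1 of the WT/WT mice at 12 months, with 4722 normalized read counts against 3546 to 3745, and replicate 5 of the 304Q/304Q mice at 2 months, with 4949 against 4000 to 4209. Replicate 1 of the WT/WT mice at 12 months was also low for Gaa, with 3393 against 3848 to 3997, and for Ctsa, with 1253 against 1529 to 1616. Ctss was high in replicate 5 of the WT/WT mice at 2 months (393 against 303 to 315). For Ctsf, replicate 4 of the 304Q/304Q mice at 2 months was high (1307 against 1209 to 1230). Man2b1 was low in replicate 3 of the 304Q/304Q mice at 12 months (499 against 632 to 680). The library of replicate 1 of the 304Q/304Q mice at 2 months held 27636687 counts, against 13246385 to 16606406 in the rest of its group.

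The effect of genotype on Ids differed between the ages by 0.44 on the log2 scale in the test of the difference itself (edgeR, Benjamini-Hochberg adjusted p = 0.0388). This call was lost in 16 of 29 alternatives, with adjusted p between 8.43e-05 and 0.0881 (edgeR or DESeq2, Benjamini-Hochberg).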

How the results depend on the processing

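Each comparison was recomputed under 30 alternatives, or 29 for the difference between ages, where a fit of 2 groups could not be made. For the named genes called in the comparisons as reported, 449 values were computed under an alternative, of which 387 kept their direction and their side of the threshold, 62 kept the direction but lost the call, and 0 turned. Calls that other genes gained are not in this count. At 12 months, DESeq2 with surrogate variables called 4 lysosomal genes between the genotypes, and the fit with the GC trend removed called 2, in place of 1. In 304Q/304Q mice, DESeq2 with surrogate variables called 10 genes with age, in place of 6. Without the libraries with choroid plexus RNA, a fit that also had fewer samples, the genotype effect differed between ages in 0 genes in place of 1. The cause of these shifts was not tested.

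With single libraries left out, between 5 and 12 genes were called with age in WT/WT mice, and between 4 and 7 in the 304Q/304Q genotype. Between genotypes they ranged from 0 to 0 at 2 months and from 1 to 2 at 12 months, and for the difference between ages from 0 to 1.

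Replicate numbers do not pair the mice: 6 of 30 pairs of libraries with the same number had a correlation of deviations over 0.1, and 4 of 20 libraries correlated best with their own number. With the replicate block, 2 genes were called between genotypes at 12 months, and 0 for the difference between ages. Genes near 50 counts, such as Ctsc, are limited by depth.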

Other observations

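Markers of other cell types are given as values, and their part in the lysosomal results was not tested. In 304Q/304Q against WT/WT mice at 12 months, 4 of 8 tested genes of activated microglia were called higher (Gpnmb, Cd68, Lyz2 and Cd74, by 0.73 to 0.86 on the log2 scale in edgeR). In the same list Apoe (-0.19), Cd9 (-0.22), Spp1 (-0.09) and Axl (0.02) were not called, and the summed level, led by Apoe, was between 1357 and 1743 CPM in WT/WT mice and between 1398 and 1528 CPM in 304Q/304Q mice. At the same age, 6 of 12 oligodendrocyte genes and 6 of 8 Purkinje cell genes were called lower, beside 12.5% of all genes called in either direction. Of 11 genes of astrocytes and Bergmann glia 3 were called lower, and of 5 blood genes 4. The summed level of the oligodendrocyte genes, with Mbp the most abundant, was between 5371 and 6105 CPM in WT/WT mice and between 3534 and 4884 CPM in 304Q/304Q mice at 12 months. For the Purkinje cell genes, led by Itpr1, it was between 7399 and 8196 CPM and between 5845 and 6416 CPM.

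With age, 4 of 12 oligodendrocyte genes were called lower in WT/WT mice and 8 of 12 in 304Q/304Q mice, beside 11.5% and 7.26% of all genes called in either direction. Of 8 genes of activated microglia, 3 were called higher with age in WT/WT mice and 5 in 304Q/304Q mice, where Lyz2 (1.61), Gpnmb (1.39), Cd74 (1.15) and Cd68 (1.02) had the largest log2 fold changes. Of 8 Purkinje cell genes, 2 were called higher in WT/WT mice and 5 lower in 304Q/304Q mice. Of 11 genes of astrocytes and Bergmann glia, 2 were called lower in WT/WT mice, and 4 lower and 1 higher in 304Q/304Q mice. Of 7 granule cell genes, 6 were called lower in WT/WT mice and 3 in 304Q/304Q mice. Endothelial cells and pericytes had 0 of 8 genes called with age in either genotype in edgeR or DESeq2, with 1 at an unadjusted p under 0.05 in each.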
